A study of Homo sapiens with 2 samples.

Results

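The regions described here are 2993 peaks of open chromatin that were called at the ends of protein-coding genes in the human line 293T and not in the T cell line J76. They were 3.52% of the 84951 peaks of the 293T list on chromosomes 1 to 22 and X. A peak was taken if it overlapped no J76 peak by 1 bp or more and if its summit lay within 1 kb of either end of a protein-coding gene of GRCh38. The summit is the position of highest signal in a peak. The members were therefore chosen by the peak calls themselves, and their absence from the J76 list and their closeness to a gene end are not results.

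Both samples were ATAC-seq libraries (assay for transposase-accessible chromatin with sequencing), in which a Tn5 transposase cuts accessible DNA and attaches sequencing adapters. The labels describe J76 as an acute T-lymphoblastic leukemia line, and the line that they call T293, or 293T in the protocol, as human embryonic kidney cells. Neither line is given a treatment, and both were handled alike, with 50000 cells per reaction and a Tn5 enzyme made in the submitters' laboratory. As background, J76 derives from the Jurkat leukemia and has lost its antigen receptor chains, whereas 293T grows attached and carries adenovirus E1 genes and the SV40 large T antigen. There was 1 library per line, so nothing below has a replicate check, no test between the lines was made and no p-value is given. Read counts were not part of the lists, so sequencing depth is unknown for either line, and the J76 list was shorter, with 58730 peaks. A missing J76 peak is an uncalled site and not a measured closed one.

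Open chromatin at a gene start marks a promoter that factors and the transcription machinery can reach. Many vertebrate promoters lie in CpG islands, stretches rich in the dinucleotide CpG, and are open in most cell types, while CpG-poor promoters are more often open in particular tissues. A peak at a gene's far end can be an enhancer, the start of an unannotated or neighbouring transcript, or an open stretch without known role. An ATAC-seq peak does not measure expression.

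The members covered start sites of very different base composition, and 4 windows of the bases before a start show the range. Each lies wholly inside its 293T-only peak, and every CpG is in capitals. CFAP221, whose product belongs to the cilia and flagella associated proteins, has 27 CpGs in chr2:119544199-119544448 (plus strand), under a peak of fold 11.4. DPYSL3, which encodes a cytoskeleton-binding protein of growing neurons, has 25 in chr5:147510069-147510318 (minus strand), fold 6.87. SMTN, the gene of the smooth muscle cytoskeletal protein smoothelin, has 1 in chr22:31063868-31064117 (plus strand), fold 9.18. SCGB1D2, a secretoglobin gene, has 1 in chr11:62241989-62242238 (plus strand), fold 8.56. The fold is the authors' enrichment over background at the summit, a linear ratio. All sequences are from RefSeq on GRCh38.p14, are read 5′ to 3′ on the gene's strand and end at the base before the start.
CFAP221: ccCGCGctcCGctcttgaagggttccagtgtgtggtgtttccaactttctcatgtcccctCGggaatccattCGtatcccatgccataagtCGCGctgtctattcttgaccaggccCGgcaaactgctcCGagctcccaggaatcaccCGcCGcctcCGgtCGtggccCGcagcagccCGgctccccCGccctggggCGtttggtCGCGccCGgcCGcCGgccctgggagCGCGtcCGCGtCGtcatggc
DPYSL3: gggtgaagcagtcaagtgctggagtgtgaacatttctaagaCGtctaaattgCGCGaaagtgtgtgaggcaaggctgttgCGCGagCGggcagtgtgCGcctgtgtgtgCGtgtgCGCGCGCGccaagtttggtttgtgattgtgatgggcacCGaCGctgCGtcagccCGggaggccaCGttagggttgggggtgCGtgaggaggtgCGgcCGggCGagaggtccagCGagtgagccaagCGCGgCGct
SMTN: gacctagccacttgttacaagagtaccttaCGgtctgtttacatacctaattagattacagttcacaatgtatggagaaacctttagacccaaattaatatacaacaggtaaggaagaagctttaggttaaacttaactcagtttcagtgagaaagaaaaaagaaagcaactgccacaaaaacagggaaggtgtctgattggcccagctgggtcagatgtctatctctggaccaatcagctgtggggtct
SCGB1D2: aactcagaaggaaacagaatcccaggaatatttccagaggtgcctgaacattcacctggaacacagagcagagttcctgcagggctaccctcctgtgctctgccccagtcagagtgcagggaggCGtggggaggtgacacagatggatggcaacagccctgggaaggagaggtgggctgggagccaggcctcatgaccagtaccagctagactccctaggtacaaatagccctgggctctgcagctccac

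A second set shows factor-binding letters named in the results on gene starts below. Capitals mark CCGGAAG or its complement, the core bound by ETS factors, before the starts of the zinc finger genes ZNF493 (chr19:21396883-21397132, plus strand), ZNF582 (chr19:56393535-56393784, minus strand) and ZNF502 (chr3:44712410-44712659, plus strand). The match begins 21 bases before the start of ZNF493, 76 and 9 bases before that of ZNF582 and 11 bases before that of ZNF502. For CCN2 (chr6:131951373-131951622, minus strand) and TGFB2 (chr1:218345086-218345335, plus strand), capitals mark ACATTCC or its complement, the core bound by TEAD factors, beginning 95 and 186 bases before the start. The 293T-only peak covers the marked letters in all 5 windows, and all of the window except at CCN2, whose peak ends inside it.
ZNF493: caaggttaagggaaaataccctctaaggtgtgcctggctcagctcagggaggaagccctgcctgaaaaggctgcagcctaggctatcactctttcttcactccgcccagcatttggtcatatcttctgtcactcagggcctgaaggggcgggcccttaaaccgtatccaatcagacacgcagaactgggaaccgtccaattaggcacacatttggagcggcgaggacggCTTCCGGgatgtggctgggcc
ZNF582: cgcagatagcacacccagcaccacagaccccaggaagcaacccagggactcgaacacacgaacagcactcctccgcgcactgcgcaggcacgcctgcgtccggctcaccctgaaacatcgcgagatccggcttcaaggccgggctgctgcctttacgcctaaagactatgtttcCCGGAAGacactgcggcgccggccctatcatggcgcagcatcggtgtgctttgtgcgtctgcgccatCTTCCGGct
ZNF502: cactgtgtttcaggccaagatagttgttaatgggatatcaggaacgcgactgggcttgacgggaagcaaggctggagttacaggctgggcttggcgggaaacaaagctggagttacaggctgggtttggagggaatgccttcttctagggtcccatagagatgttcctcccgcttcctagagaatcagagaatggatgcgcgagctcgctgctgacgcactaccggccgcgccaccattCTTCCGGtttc
CCN2: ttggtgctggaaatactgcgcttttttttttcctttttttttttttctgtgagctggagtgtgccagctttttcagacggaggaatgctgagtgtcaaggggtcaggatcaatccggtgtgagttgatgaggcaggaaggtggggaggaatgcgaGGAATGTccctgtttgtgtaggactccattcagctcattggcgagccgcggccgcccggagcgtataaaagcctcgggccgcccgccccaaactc
TGFB2: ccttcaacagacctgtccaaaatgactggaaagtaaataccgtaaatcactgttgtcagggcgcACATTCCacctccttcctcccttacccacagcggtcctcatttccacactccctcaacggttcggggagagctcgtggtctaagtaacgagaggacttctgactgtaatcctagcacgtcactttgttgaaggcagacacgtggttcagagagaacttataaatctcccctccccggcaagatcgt

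Of 13721 gene-end peaks in 293T, the members were 21.8%, and the other 10728 overlapped a J76 peak. In the J76 list the like share was 11.2% (1356 of 12144). The members touched 2919 of 19974 protein-coding genes, 14.6% of all, and this share is the background for each gene list below. For 1674 genes (8.38% of all) there was in addition no J76 peak within 1 kb of either end. They were 57.3% of the 2919, the background for the counts of member genes without a J76 peak below. A further 1086 of the 2919 genes (37.2%, 95% Wilson interval 35.5 to 38.97) also had a gene-end peak shared with J76, so that the member was an additional site at a gene open in both lines. A J76-only gene-end peak stood beside the 293T-only one at 131 genes. Of the members, 221 (7.38%) lay within 1 kb of ends of 2 or more genes, against 16.99% of the shared gene-end peaks. Such a peak was counted at each of these genes. A fold given below for a gene can therefore be that of a peak also within 1 kb of another gene's end. Among the genes named below this holds for CACNG7, OR2B11, CT45A10, CFAP90, EPHB4, INHA, KCNQ1, S100A8, RPL7A and RPL18, among others. At 943 of the 2919 genes (32.3%) another gene end lay within 2 kb of either end, whichever end held the peak. The share was 36.4% over all protein-coding genes. Intervals here and below cover counting error only.

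Most members stood at gene starts, but less closely than shared peaks did. Strand, and so which end is the start, was known for the nearest gene of 2342 members, and 1727 of these (73.7%, interval 71.9 to 75.5) were nearest a start. The share was 94.96% (94.5 to 95.4) in shared 293T peaks and 66.1% (63.2 to 68.9) in J76-only gene-end peaks. Of the start-nearest members, 38.3% (36.0 to 40.6) had their summit within 100 bp of the start, against 61.7% (60.7 to 62.7) of shared ones. The summit lay inside the gene, downstream of the start, in 47.9% (45.5 to 50.2) of start-nearest members and in 27.3% (26.4 to 28.3) of shared peaks. The 100 bp just before the start held 27.6% of start-nearest members, the highest share of any such bin. From 400 to 1000 bp inside the gene each bin of 100 bp held between 3.53% and 5.15%. The 615 members nearest a gene's far end had no such maximum: 4.23% had their summit within 100 bp of the end, and 60.2% (56.2 to 63.96) lay past it.

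**Figure D1:**
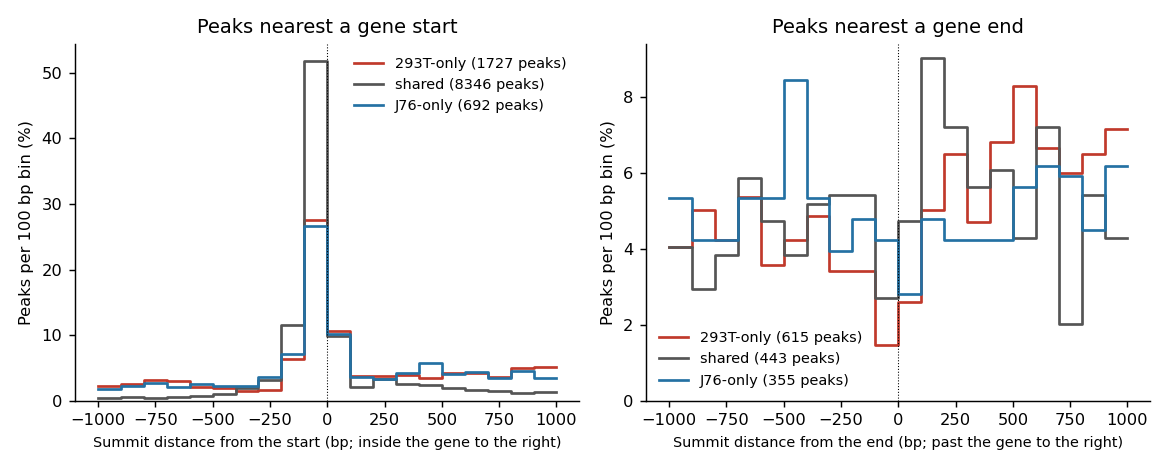
Summit distance in bp from the nearest gene start (left) and from the nearest gene end (right), as the percentage of peaks per 100 bp bin, for 293T-only, shared 293T and J76-only gene-end peaks whose nearest gene has a known strand. All 3 groups are highest just before the start, where the shared peaks exceed both others, and none has a sharp maximum at the gene end.

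The members were weaker and narrower than shared peaks of the same list. Their median fold was 4.24 (interquartile range 3.13 to 6.40, highest 14.9) against 7.83 (5.99 to 9.62) in shared gene-end peaks. Median width was 428 bp against 1189 bp, and the median −log10 q, the caller's adjusted p on a log scale, was 10.6 against 57.4. In 293T-only peaks away from gene ends the median fold was 3.76 and the median width 304 bp. J76-only gene-end peaks had a median width of 337.5 bp. Members nearest a start had a median fold of 4.69 and a width of 556 bp, and those nearest a far end 3.58 and 299 bp. Ranked by fold and divided into 4 groups of 748 or 749, the members differed in where they stood. In the group with the lowest fold (median 2.70, width 262 bp), 12.1% of those with strand lay within 250 bp of a start and 50.2% had a J76 peak within 1 kb. In the group with the highest fold (median 8.03, width 1038.5 bp), 71.0% lay within 250 bp of a start, 91.0% were nearest a start and 4.14% had a J76 peak within 1 kb. Across the 4 groups the share with a near J76 peak fell at each step, whereas the start-nearest share was lowest in the second group (60.7%). Median width rose with fold, and a wide peak near a J76 peak more easily overlaps it and is left out by the rule. The fall is therefore partly set by the rule, and how large that part is was not tested.

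**Figure D2:**
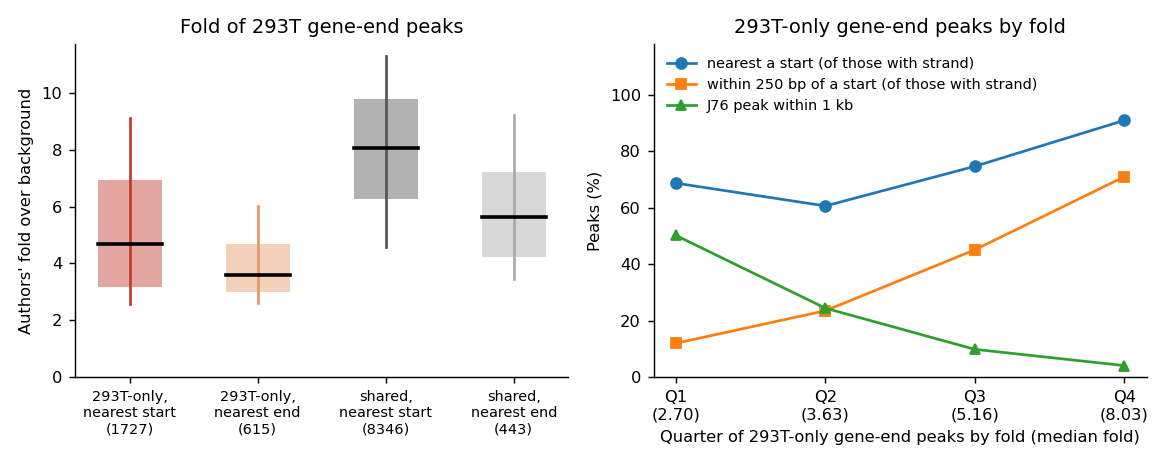
Left, the authors' fold of 293T gene-end peaks by nearest boundary (box, interquartile range; line, median; whisker, 10th to 90th percentile; number of peaks in brackets). Right, percentages of the members in each of 4 groups by fold: the share within 250 bp of a start rises from 12.1% to 71.0% and the share with a J76 peak within 1 kb falls from 50.2% to 4.14%. Peaks of higher fold are wider, and a wide peak near a J76 peak more easily overlaps it and is then no member.

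The 25 members with the highest fold lay between 12.5 and 14.9, were 679 to 1581 bp wide, and 23 of them had their summit within 250 bp of a gene boundary. Genes with a ZNF symbol held 8 of the 25, and ZBTB8B, named below, is a further C2H2 zinc finger gene. The highest (chr19:56566895-56567984, fold 14.9) had its summit where ZNF470 and ZNF470-DT overlap, 24 bp inside the start of ZNF470. DYNLT3, a dynein light chain gene, followed (chrX:37846882-37847909, 14.4), then ZNF493 (14.1), the actin-nucleating formin gene FMN1 (chr15:33194239-33195286, 14.1), ZNF582 (14.02) and ZNF701 (13.99). Signalling and stress genes among them were MAP3K13, a kinase of the JNK pathway (13.9), the immune receptor gene CD40 (chr20:46117731-46118409, 13.2), CHFR, a ubiquitin ligase of the mitotic checkpoint (13.1), and CBR1, a carbonyl reductase (13.2). Cilia and organelle genes were TTC12, needed for dynein arm assembly (13.8), IFTAP, a partner of intraflagellar transport (13.8), MTERF2 of the mitochondrial transcription termination factor family (13.6) and MTX3, a metaxin (12.5), whose peak also lay 121 bp before the start of THBS4, a thrombospondin gene. TMEM45A (13.0), ENPP5 (12.8), the vesicle GTPase gene RAB3C (12.7), the relaxin gene RLN2 (12.7), VWA3B (12.5), ZBTB8B (13.2), ZNF841 (13.8), ZNF501 (13.1), ZNF155 (13.0) and ZNF888 (12.5) completed the group. RPS6KA4, a kinase gene, was the single one nearest a known far end, 884 bp past it (13.0), and 4 had no strand. At 4 of the genes touched, ZNF701, TMEM45A, RPS6KA4 and THBS4, a J76 peak lay elsewhere within 1 kb of an end.

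C2H2 zinc finger genes encode the largest family of human DNA-binding factors. The list used here and below was matched by symbol and leaves out some of them, such as ZBTB8B. Its genes had members at 81 of 562 (14.4%, interval 11.8 to 17.6), next to the background of 14.6%. Their folds were higher than those of most members: the median of each gene's highest member was 6.72, against 4.44 over all 2919 genes, and 34 of the 81 had a fold of at least 8, among them ZNF493 and ZNF582. Chromosome 19, home of the largest zinc finger clusters, held 28 of its 261 (10.7%), and the other chromosomes 53 of 301 (17.6%). Over all genes the shares were 10.4% on chromosome 19 and 14.9% elsewhere. Of gene starts with a 293T-only peak and no other gene-end peak at the start, 37 belonged to zinc finger genes and 1093 to others, with median folds of 8.98 and 5.89. The ETS letters were in the start windows of 16 of these 37 (43.2%) and of 123 of 283 zinc finger starts open in both lines (43.5%). In other genes they were in 5.40% of 293T-only and 20.7% of shared starts. Among starts without a peak, the letters were in 17 of 65 zinc finger starts (26.2%) and in 2.80% of the others. A start window runs from 250 bases before to 50 bases after the start.

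Across all genes with a start window, the 293T-only starts lay between the shared starts and those without a peak in CpG content. The CpG observed to expected ratio, which is near 1 where CpGs are as frequent as the base composition predicts, had a median of 0.700 over 1130 starts with a 293T-only peak. It was 0.866 over 8377 shared starts, 0.462 over 439 J76-only starts and 0.264 over 3917 starts without a peak, with 0.774 over all 14293. A ratio of at least 0.6, a usual limit for CpG islands, was reached by 62.7% (59.9 to 65.5), 91.5%, 38.3% and 18.9% of them. Within the 293T-only starts, the 709 above that limit had a median fold of 6.59 and a width of 1004 bp, and the 421 under it 4.90 and 559 bp. The motif shares below come from the same windows and were not adjusted for CpG content.

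Both strands of each start window were searched for 10 short motifs. CCGGAAG (ETS) was in 6.64% (5.33 to 8.24) of 293T-only starts, 21.5% of shared starts and 14.8% of all starts. It was in 7.29% (5.21 to 10.1) of J76-only starts and 3.19% (2.69 to 3.79) of starts without a peak. TGCGCA, part of the site of NRF1, a factor of CpG-rich promoters, was in 6.46% of 293T-only, 15.5% of shared and 11.2% of all starts. GGGCGG (GC box) was in 58.9%, 75.3% and 59.4%. In J76-only starts the 2 were in 5.92% and 46.2%, and in starts without a peak in 4.06% and 25.9%. TGANTCA (AP-1) was in 8.14% (6.69 to 9.88) of 293T-only starts, 3.15% of shared and 5.65% of all starts. It was in 9.34% (6.96 to 12.4) of J76-only starts and 10.03% (9.13 to 11.01) of starts without a peak, so the 293T-only starts did not exceed either. ACATTCC (TEAD) was in 2.83% of 293T-only, 1.59% of shared, 2.73% of J76-only and 4.29% of peakless starts. AGATAA, the core of the factors named for it, among them GATA5, was in 8.32% of 293T-only, 3.83% of shared and 7.42% of all starts, and in 14.96% of those without a peak. The letters of the TATA box, searched as TATAAA, were in 9.03%, 4.67% and 9.66%, and in 20.6% of starts without a peak. TGTGGT, the core of RUNX factors that are prominent in T cells, was in 8.67% (7.17 to 10.5) of 293T-only starts, 8.42% (7.84 to 9.03) of shared, 18.7% (15.3 to 22.6) of J76-only and 10.6% of all starts. Starts without any peak held it in 15.5% (14.4 to 16.7), an interval that overlaps that of the J76-only starts. CCAAT was in 33.4% and CACGTG (E-box) in 7.70% of 293T-only starts, against 36.7% and 9.01% of all starts. These are counts of letters, not of bound sites.

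**Figure D3:**
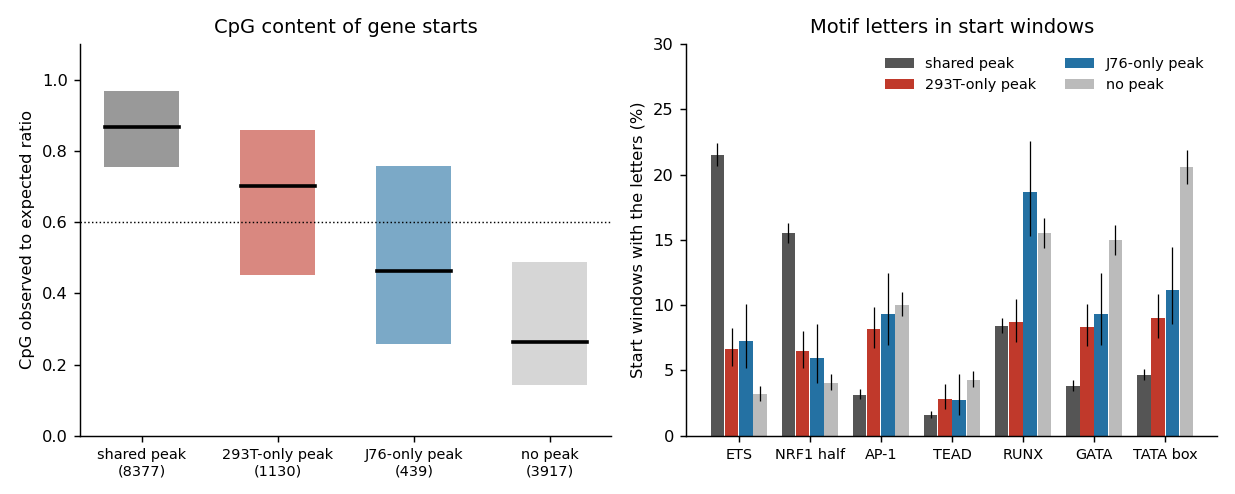
Left, CpG observed to expected ratio of start windows by the peaks at the start (box, interquartile range; line, median; dotted line, 0.6; number of genes below). Right, percentage of start windows with the letters of 7 motifs on either strand, with 95% Wilson intervals. ETS letters are in 6.64% of 293T-only, 21.5% of shared, 7.29% of J76-only and 3.19% of peakless starts. RUNX letters are in 8.67% of 293T-only, 18.7% of J76-only and 15.5% of peakless starts.

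The genes were then read by family, over 43 lists that together held 597 of the 2919 genes (20.5%). These shares describe 1 library per line, and no list was tested. The intervals take genes as independent, although neighbouring genes can share a peak, and were not adjusted for the number of lists. HOX genes, which encode the homeodomain factors of position along the body axis, had members at 18 of 39 (46.2%, interval 31.6 to 61.4). The count was 9 at a −log10 q of at least 10 in both lists, 11 with no J76 peak within 1 kb and 7 without crowded genes, those with another gene end near. The peaks were weak: 15 of the 18 had a fold under 4, and the median was 2.58. The highest were at HOXD1 (chr2:176187645-176188891, 7.82), HOXA4 (chr7:27129927-27131489, 4.78) and HOXB2 (chr17:48544459-48544918, 4.03). HOXA held 6 of its 11 genes (HOXA3, HOXA4, HOXA5, HOXA9, HOXA10 and HOXA11, peak folds 1.77 to 4.78) and HOXB 7 of 10 (HOXB2, HOXB3 and HOXB5 to HOXB9, 1.91 to 4.03). HOXC held 3 of 9 (HOXC8, HOXC9 and HOXC11, 2.15 to 3.28) and HOXD 2 of 9 (HOXD1 and HOXD11, 3.33 and 7.82). At 11 of the 18 genes no J76 peak lay within 1 kb of an end, beside 57.3% of all member genes. The HOXB members had J76 peaks a median of 964.5 bp away and a median width of 219 bp, and 11 of the 18 genes had another gene end within 2 kb.

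The lists of other developmental transcription factors had shares above 14.6% as well, although the interval of the SOX genes includes it. Homeobox and PAX genes outside the HOX clusters had 45 of 167 (26.9%, 20.8 to 34.1), and 36 of the 45 had no J76 peak at an end. GSX1 and PDX1, which act in the forebrain and the pancreas, lie close together on chromosome 13 (chr13:27792325-27793156, 11.5, and chr13:27919779-27920778, 8.82). PAX1 of the vertebral column had a fold of 9.59, NKX2-3 of gut and spleen 9.34, HMX1 8.52 and GBX2 of the midbrain boundary 8.44. Forkhead factors had 14 of 51 (27.5%, 17.1 to 40.9), led by FOXC2, which acts in vessels and kidney (8.36), and FOXI3 (6.95). FOXL2 had 2 members at its far end (6.45 and 4.36). T-box and GATA factors had 7 of 22 (31.8%, 16.4 to 52.7), with TBX20 (7.45) and TBX3 (6.61) of heart and limb above TBXT, the brachyury gene (5.80), TBX2 (5.13), TBX18 (4.74) and GATA5 (4.06). SOX factors had 4 of 19 (21.1%, 8.51 to 43.3), including SOX7 (8.45), SOX9 of cartilage and testis (6.98) and SOX18 (4.25).

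**Figure D4:**
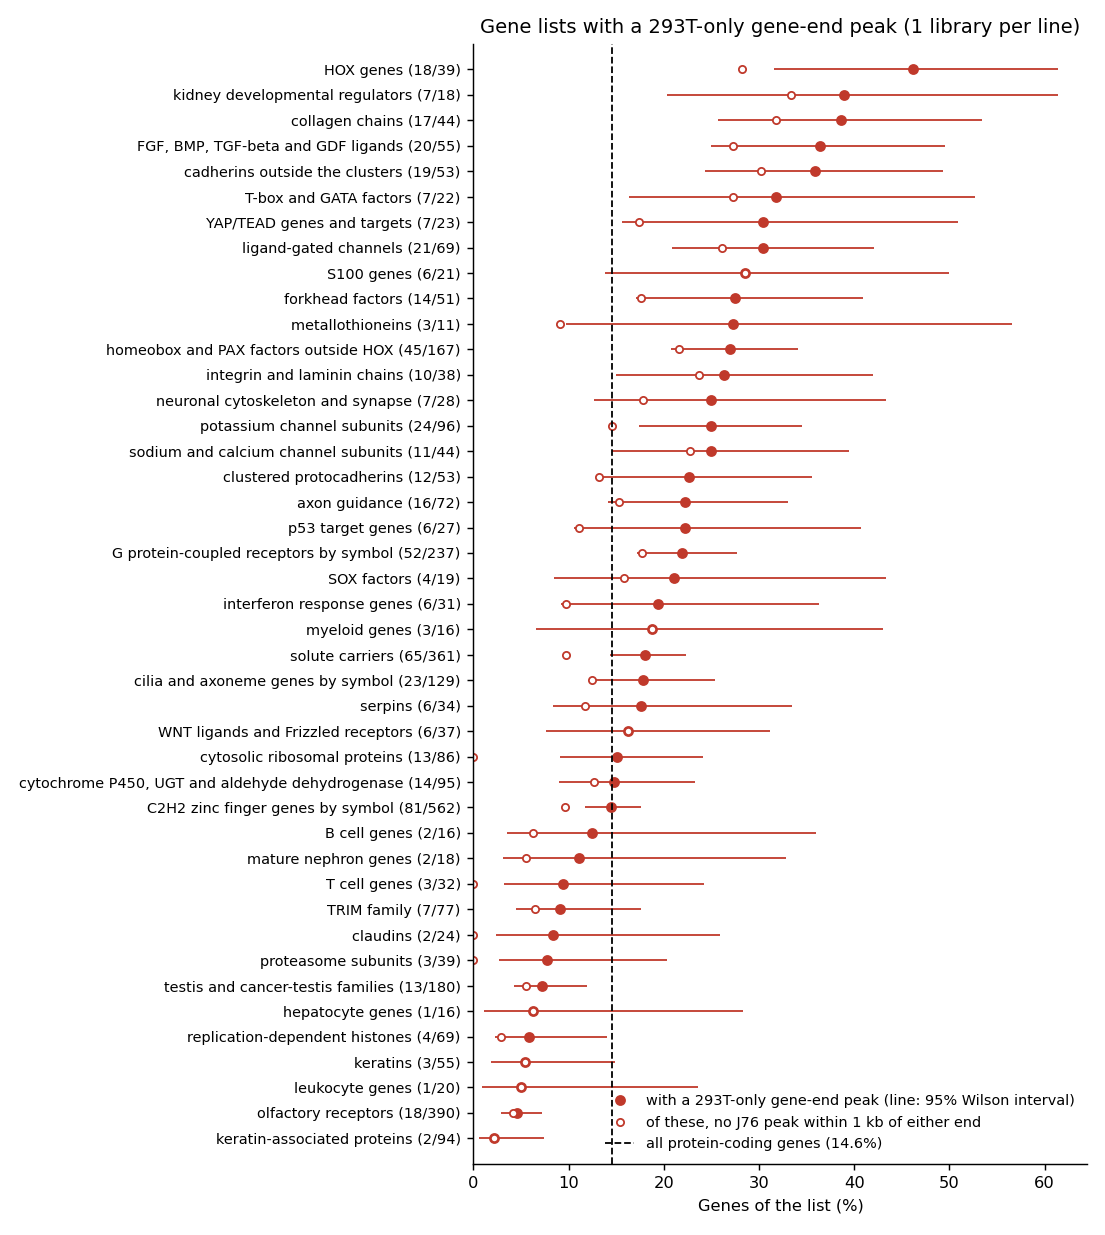
Percentage of each list's genes with a member (filled points, with the 95% Wilson interval and the numbers of genes in brackets) and with a member and no J76 peak within 1 kb of either end (open points). The dashed line is the 14.6% of all protein-coding genes: HOX genes, collagens, growth factors and cadherins lie to its right with their whole interval, and olfactory receptors and keratin-associated proteins to its left.

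Kidney developmental regulators had 7 of 18 (38.9%, 20.3 to 61.4), on few genes. GDNF, the growth factor that draws out the ureteric bud, was strongest (chr5:37839799-37840905, 9.88), followed by WT1, a zinc finger factor of the podocyte lineage (chr11:32434513-32435947, 6.67), LHX1 (5.12), SALL1 (4.00), HOXD11 (3.33) and EMX2 (3.08). Over all protein-coding genes, 69.7% had a 293T peak within 1 kb of an end and 64.6% a J76 peak. Of 10 kidney markers 7 had a 293T peak, close to the share of all genes, and PAX2, PAX8 and OSR1 did not, so this count is no check of the label. A J76 peak was at 2 of the 10. Of 12 T cell markers, 3 had a 293T peak and 11 a J76 peak, and CD3E, CD3G, CD2, CD5, CD6, CD28, LCK, ZAP70 and LAT had none in 293T. A 293T peak was at 5 of 6 epithelial, 7 of 8 neuronal, 1 of 6 B cell and 3 of 6 myeloid markers, to be read against the same 69.7% and on few genes. A J76 peak was at 1 of the epithelial, 5 of the neuronal, 1 of the B cell and 0 of the myeloid markers. CDH1 was the epithelial and INA the neuronal marker without a 293T peak. Mature nephron genes had members at 2 of 18 (11.1%, 3.10 to 32.8), an interval that includes the background and overlaps that of the developmental list. They were CALB1 (8.74) and SCNN1A, an epithelial sodium channel subunit (5.88).

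Growth factor ligands of the FGF, BMP, TGF-beta and GDF families had members at 20 of 55 (36.4%, 24.9 to 49.6), 15 of them without a J76 peak at an end. GDF6 had a fold of 8.28, FGF23, the phosphate-regulating hormone, 7.09, BMP5 6.85, TGFB2 6.28, FGF19 5.90 and the inhibin chain INHA 5.61. For TGFB2 the summit lay 542 bp inside the gene. WNT ligands and their receptors and inhibitors had 6 of 37 (16.2%), near the background, and all 6 lacked a J76 peak at an end. The secreted inhibitors SFRP1 (7.27) and DKK1 (6.81) stood above the ligands WNT5A (5.42), WNT3A (3.801), WNT2 (3.78) and WNT11 (3.16). Axon guidance genes had 16 of 72 (22.2%, 14.2 to 33.1). ROBO2, a receptor for SLIT ligands, had a member at its start (chr3:75906411-75907309, 9.80) and a weak one at its far end (3.55), and SLIT3, one of those ligands, had 7.17. The semaphorin genes SEMA6D (8.58), SEMA3E (7.46) and SEMA4B (6.85) and the ephrin receptor gene EPHB4 (7.36) were the others named.

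Among cell adhesion and matrix genes, the collagen, cadherin and integrin and laminin lists had their whole interval above the background, and the clustered protocadherin and claudin lists did not. Collagen chains had members at 17 of 44 (38.6%, 25.7 to 53.4), 14 without a J76 peak at an end. COL15A1 had 8.36, COL24A1 7.65, COL6A6 7.47 and COL8A1 6.40. A single peak of 2263 bp spanned the divergent starts of the basement membrane genes COL4A1 and COL4A2 (chr13:110306443-110308705, 5.52), with its summit 104 bp inside COL4A1. Cadherins outside the protocadherin clusters had 19 of 53 (35.8%, 24.3 to 49.3). CDH10 had members at both ends, its start at fold 10 (chr5:24644600-24645327) and its far end at 6.68, with the nearest J76 peak over 200 kb away from either. PCDH20 (9.46), PCDH18 (8.02), PCDH17 (7.08), CDHR1 (6.85) and CDH6, a cadherin of the embryonic kidney (6.67), followed. Clustered protocadherins, neuronal adhesion genes in tandem on chromosome 5, had 12 of 53 (22.6%, 13.5 to 35.5), with PCDHGC3 (9.10), PCDHGA11 (8.14), PCDHGC4 (7.19), PCDHGB3 (6.68), PCDHA2 (5.63) and PCDHA5 (4.80). Of these 12 genes 10 had another gene end within 2 kb. Integrin and laminin chains had 10 of 38 (26.3%, 14.97 to 42), led by LAMA4 (7.13), LAMB2 (6.48), ITGA8, an integrin of kidney development (6.39), ITGAX (5.99), LAMA1 (5.88) and the fibronectin receptor chain ITGA5 (5.24). Claudins, which seal tight junctions, had 2 of 24 (8.33%, 2.32 to 25.8), CLDN7 (3.802) and CLDN5 (3.04).

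Genes of the YAP/TEAD pathway, a sensor of cell contact and tension, had 7 of 23 (30.4%, 15.6 to 50.9). Of the 7, 4 lacked a J76 peak at an end, beside 57.3% of all member genes. The target genes NUAK2, a kinase (chr1:205321178-205322082, 9.28), and CCN2, a matricellular growth factor (chr6:131950312-131951557, 8.05), had the highest folds. TGFB2 (6.28), ANKRD1, a widely used target (4.66), AMOTL1 (4.40) and TEAD2 (3.66) followed. ANKRD1 and TEAD2 also had shared peaks at their ends, and TEAD2 had 3 members within 1 kb of its start with folds from 2.97 to 3.66. The TEAD letters printed above for CCN2 and TGFB2 were absent from the start window of NUAK2.

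Of the ion channel, receptor and carrier lists, ligand-gated channels, potassium channels and G protein-coupled receptors had their whole interval above the background. The intervals of sodium and calcium channels and of solute carriers reach it. Ligand-gated channels had 21 of 69 (30.4%, 20.8 to 42.1), 18 of them without a J76 peak at an end. The glutamate receptor gene GRIA2 had 11.4, the serotonin receptor gene HTR3A 10.4, and the GABA receptor genes GABRQ, GABRE and GABRA2 9.87, 7.25 and 6.02. GABRQ and GABRE lie on chromosome X with the nearest J76 peak 192235 and 251453 bp away. Potassium channel subunits had 24 of 96 (25%, 17.4 to 34.5), with KCNN2 (10.2), KCNA4 (9.43), KCNH5 (9.41), KCNJ8 (7.48), KCNQ1 (6.54) and KCNA6 (5.84). Sodium and calcium channel subunits had 11 of 44 (25%, 14.6 to 39.4), led by SCN4B (8.80), CACNG7 (7.99), CACNG5 (6.52) and CACNA1B (6.46). G protein-coupled receptors had 52 of 237 (21.9%, 17.1 to 27.6), among them the adhesion receptor ADGRV1 (10.7), the lysophosphatidic acid receptor LPAR3 (9.39), GPR65 (9.29) and the adrenergic receptors ADRA1A (8.35) and ADRA1D (8.27). GPR65, a proton-sensing receptor of lymphoid cells, had its peak at the far end. Solute carriers had 65 of 361 (18.0%, 14.4 to 22.3), with SLC44A3 (10.8), SLC25A21 (9.97), the zinc carrier SLC39A2 (9.39), the anion exchanger SLC26A4 (9.10), SLC6A17 (8.88) and the glucose carrier SLC2A12 (8.65).

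Neuronal cytoskeleton and synapse genes had 7 of 28 (25%, 12.7 to 43.4). CNTN1, a neural adhesion molecule (9.52), GAP43 of growth cones (8.05), DPYSL3 (6.87) and L1CAM (4.42) were among those with members, and NLGN1 (3.65) had one past its far end. Cilia and axoneme genes had 23 of 129 (17.8%, 12.2 to 25.3) with a high median fold of 6.26. CFAP221 (11.4), the dynein heavy chain gene DNAH5 (11.0), SPAG17 (10.8), CFAP95 (10.4), CFAP45 (10.3) and CFAP90 (9.71) led them, each nearest a start and with no J76 peak at an end.

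**Figure D5:**
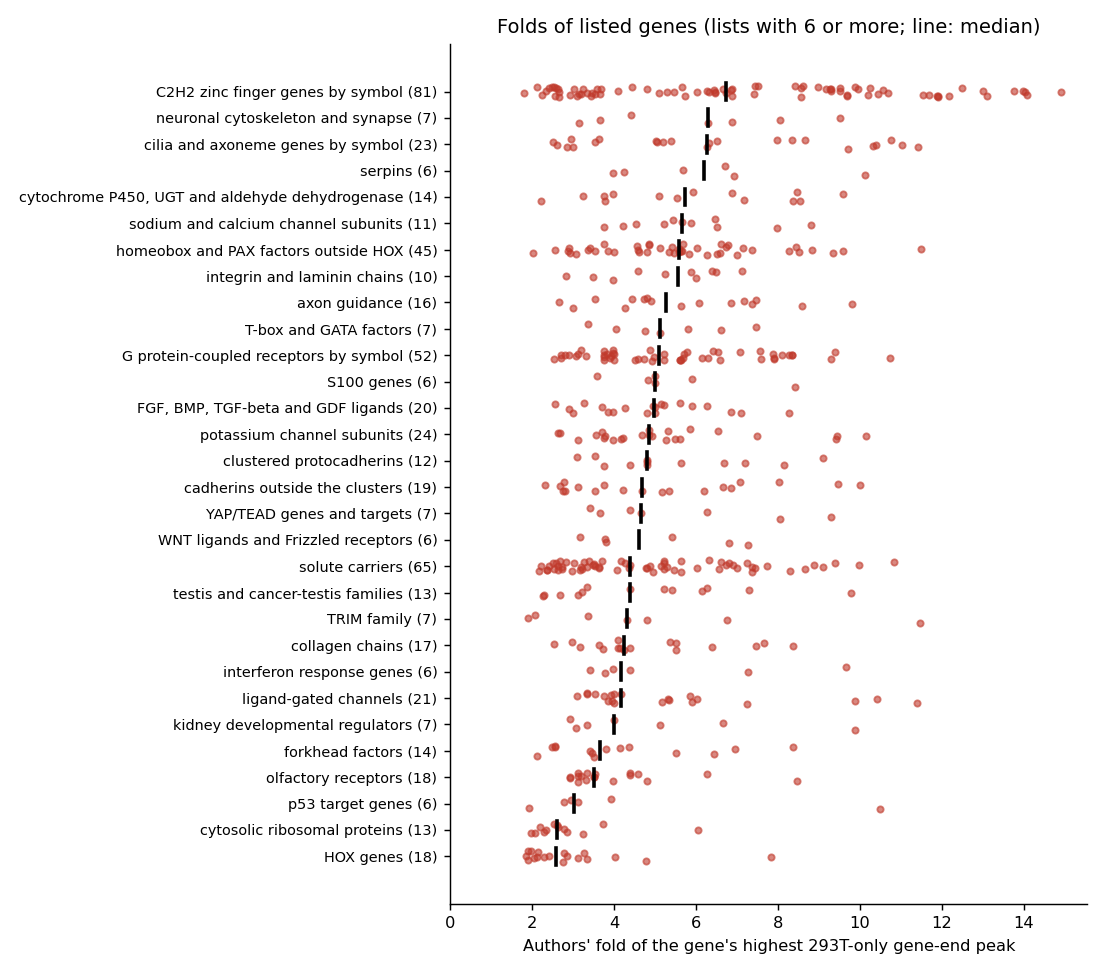
Authors' fold of the highest member of each gene in the lists with at least 6 such genes (points, number of genes in brackets; black lines, medians). Zinc finger genes reach the highest folds and have the highest median, 6.72, and HOX genes and cytosolic ribosomal protein genes have the lowest medians, 2.58 and 2.61.

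Metabolic, stress and immune families, TRIM genes and keratins had shares on either side of 14.6%, with intervals that include it. Cytochrome P450, UDP-glucuronosyltransferase and aldehyde dehydrogenase genes had 14 of 95 (14.7%, 8.99 to 23.2), with ALDH1L2 (9.60), ALDH7A1 (8.54), UGT2B4 (8.45) and ALDH2 (8.36) highest. Serpins had 6 of 34 (17.6%, 8.35 to 33.5), including SERPING1, the gene of the complement C1 inhibitor (6.93). S100 calcium-binding genes had 6 of 21 (28.6%, 13.8 to 49.96), led by S100A1 (8.41) and S100A11 (5.91), and metallothioneins 3 of 11 (27.3%, 9.75 to 56.6), MT1F (9.20), MT1E (8.55) and MT2A (3.30). Of p53 target genes 6 of 27 (22.2%, 10.6 to 40.8) had members, but only SPATA18 (10.5) had a fold above 4. Interferon response genes had 6 of 31 (19.4%, 9.19 to 36.3), with IFIT3 (9.66) and BST2 (7.28) above RSAD2 (4.39) and MX1 (3.96). TRIM genes had 7 of 77 (9.09%, 4.47 to 17.6), with TRIM31 (11.5) at its far end. Keratins had 3 of 55 (5.45%, 1.87 to 14.9). KRT8 and KRT18, neighbouring keratins of simple epithelia, shared a peak (chr12:52948799-52949390, 6.25) 827 bp from the start of KRT8, which had a second member 48 bp from its start (chr12:52949490-52950096, 4.01). KRT80 (4.41) was the other.

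Olfactory receptors, keratin-associated proteins, testis families and replication-dependent histones had their whole interval under 14.6%. Olfactory receptors had 18 of 390 (4.62%, 2.94 to 7.18), 12 of them with a fold under 4, with OR2B11 (8.47) and OR51L1 (6.26) highest, both at far ends. Keratin-associated proteins had 2 of 94 (2.13%, 0.585 to 7.43), KRTAP19-1 (4.94) and KRTAP23-1 (3.55). Testis and cancer-testis families had 13 of 180 (7.22%, 4.27 to 11.96), with CT45A10 (9.78), MAGEB2 (7.29), GAGE2A (6.26), MAGEA3 (6.15) and MAGEA6 (5.42) on chromosome X. Copies in the CT45, GAGE and MAGEA families, and among olfactory receptors, are close in sequence, so single members there are uncertain. Replication-dependent histones had 4 of 69 (5.80%, 2.28 to 13.98), H3C6 (9.77), H2AC16 (9.06), H3C7 (5.01) and H2BC17 (3.29), and 45 of the 69 had a shared peak. Cytosolic ribosomal proteins had 13 of 86 (15.1%, 9.05 to 24.2), yet none lacked a J76 peak and 83 of the 86 had a shared one. Their members were weak sites mostly at the far ends, as at RPS19 (3.73), RPS14 (3.25), RPL7A (2.85), RPL22L1 (2.77) and RPL18 (2.63), below RPL27A (6.05). Proteasome subunits had 3 of 39 (7.69%, 2.65 to 20.3), PSMB5 (4.49), PSMB6 (3.96) and PSMD11 (3.43), again beside shared peaks.

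The members at T cell genes were weak, and the intervals of all 4 blood cell lists include the background of 14.6%. Of 32 T cell genes 3 (9.38%, 3.24 to 24.2) had a member, each at the far end and each at a gene with a J76 peak at an end. These were PTPRC, the CD45 phosphatase (chr1:198756507-198756784, 3.76), LCP2, an adaptor of receptor signalling (3.21), and CD247, the CD3 zeta chain (2.83). Their −log10 q values were between 3.06 and 4.84. A J76-only gene-end peak was found at 25 of the 32 (78.1%), beside 6.67% of all protein-coding genes. Leukocyte genes had 1 of 20 (5%, 0.888 to 23.6), PTPN6 (5.07), a gene with another gene end within 2 kb. B cell genes had 2 of 16 (12.5%, 3.498 to 36.02), EBF1 (5.54) at its far end and FCRLA (3.93). Myeloid genes had 3 of 16 (18.75%, 6.59 to 43.01), S100A8 (5.01), CSF1R (3.13) and CSF3R (3.08). Hepatocyte genes had 1 of 16 (6.25%, 1.11 to 28.3), FGG (3.96).

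Some genes carried several members. At 83 genes separate members lay at both ends, 261 genes had 2 members and 18 had 3 or more. In most named examples the start peak was strong and the far-end peak weak. ZDHHC1, a palmitoyltransferase gene, was an exception, with 11.1 at the start and 8.04 past the end. The latter peak also lay within 1 kb of an end of another gene. TMEM144 had 2 members near its start (11.8 and 2.84) and 1 at its end (3.79). The antigen-presenting gene CD1D had 8.23 and 2.96, RANBP17 9.90 and 2.85, LSR 8.18 and 2.71, and BAALC, whose strand was not known, 8.09 and 3.55. At SCLY and SDS the stronger peak lay at the far end (9.38 against 2.46, and 8.56 against 3.76). Both genes had another gene end within 2 kb of one of their ends. The widest members were moderate in fold. EN2, a homeobox gene of the midbrain, had 2954 bp (chr7:155456869-155459822, 4.56), GULP1 2868 bp, THBD, the thrombomodulin gene, 2840 bp, and WLS, which carries WNT proteins to the surface, and TBX18 2785 bp each. BARX2, the cell cycle inhibitor gene CDKN2A (2681 bp, 4.01), PRDM6, FBN2 and PRKG1 (2602 bp, 3.69) completed the 10 widest.

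Sites on either side of the rule's limits ranged from weak to strong. The 5 members nearest inside the 1 kb limit, 997 to 1000 bp from a gene end, were at TYW3 (4.16), NOCT (2.30), ARHGAP10 (1.89), SMN2 (3.26), which has a near-identical copy and is uncertain, and PCDH19 (2.79). Peaks just outside, within 2 bp of the limit, were at NBDY (4.80), GRIA1 (2.96), HSPB3 (3.82), GBP3 (3.25) and RASGEF1A (2.86). On the overlap side, members came as close as 4 bp to a J76 peak (CAPZB, 2.35), 6 bp (ASCL4, 9.39) and 9 bp (LOC124906086, 5.34), and shared peaks overlapped one by as little as 1 bp (FICD, 2.40, and MYBBP1A, 2.92). In all, 664 members (22.2%, 20.7 to 23.7) had a J76 peak within 1 kb, with a median fold of 2.99 and a width of 274 bp, and 599 lay within 1 kb of a shared 293T peak. Wider peaks so near a J76 peak more easily overlap it and are left out by the rule.

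At the other extreme, 152 members had no J76 peak within 100 kb, with a median fold of 5.97. The strongest were at CEP15 (12.04), ZNF879 (11.9), MTMR8 (11.3), INSYN2B (11.1), GLUD2, a glutamate dehydrogenase (10.5), CAP2, an actin regulator (10.03), CDH10 (10) and PWWP3B (10). In 9 cases the distance was over 500 kb, 4 of them on chromosome 9 and 3 on chromosome X. The 4 on chromosome 9 were at the methylthioadenosine phosphorylase gene MTAP (chr9:21802068-21803619, 9.02), the cell cycle inhibitor genes CDKN2A (4.01) and CDKN2B (chr9:22008586-22009748, 9.56), and DMRTA1 (chr9:22446565-22447630, 8.70). They shared a single stretch of 2372 kb, chr9:21119767-23492201, that held 54 peaks in 293T and none in J76. PNPLA4 (9.95), TMEM47 (5.86) and IL1RAPL1 (5.42) on chromosome X lay in J76-free stretches of 2068, 1773 and 1524 kb with 14, 9 and 4 peaks in 293T. A peak list cannot tell closed chromatin from DNA that a line lacks or holds in fewer copies, and this was not tested.

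The surroundings of the members held more 293T-only than J76-only peaks, as did those of the shared gene-end peaks. Within 50 kb of a member's summit there were on average 2.01 293T-only and 1.01 J76-only peaks away from gene ends. Around shared gene-end peaks of 293T the averages were 1.75 and 1.11, and around J76-only gene-end peaks 1.49 and 1.64. The lists differ in length and neighbouring members share such peaks, and the part of either in these averages was not tested. The ratio of 293T-only to J76-only peaks away from gene ends over the genome was not set beside them. HOXC8 and HOXC9 had the fullest surroundings, with 17 and 16 293T-only peaks and 0 and 1 J76-only peaks. UNC5C, a netrin receptor gene, and RFX6 had 13 each, NR2F2 12 and BMP5 11.

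Members were spread over the genome, in 1471 windows of 1 Mb, of which 682 held 1 and 90 held 5 or more. The fullest were the HOXB window on chromosome 17 and a window on chromosome 22 with CARD10 and LGALS1 (11 members each), and windows with TEAD2 on chromosome 19 and with the PCDHB and PCDHG genes on chromosome 5 (10 each). The share of a chromosome's genes with a member ran from 10.4% on chromosome 19 to 19.03% on chromosome 5. On chromosome X 31.6% of the 293T gene-end peaks were members, the highest share of any chromosome. There 293T had 2.30 times as many peaks of any kind as J76, against 1.45 times over the genome, 2.61 times on chromosome 13 and 0.881 times on chromosome 20. The part of these regional differences in list length in the shares of members was not tested.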

How the data were processed

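ATAC-seq peak lists of 1 J76 and 1 293T library were used. The submitters' processing notes name Bowtie2 and MACS2. Versions and settings were not given in the sources used here. As deposited by the authors, there is 1 narrowPeak list per library. It holds the authors' fold enrichment at the summit (a linear ratio), the authors' −log10 p-value and −log10 q-value per peak, and a deposited score, which is the −log10 q multiplied by 10 and cut to an integer in nearly all peaks. Folds were used only to describe and rank peaks within the 293T list. The lists hold no counts, so depth is unknown. No source used here states the genome build. Contig names of GRCh38 occur in the lists, and for that reason coordinates are called GRCh38, with the first base as 1.

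Gene boundaries were those of RefSeq on GRCh38.p14 for 19974 protein-coding genes of chromosomes 1 to 22 and X, each with its 2 outermost boundaries, so starts inside a gene do not count. Strand came from RefSeq start windows matched by gene identifier for 15812 genes (79.2%); 14293 windows within 1 kb of the gene boundary were used for CpG content and motifs. A J76 peak "at an end" overlaps 1 kb either side of it. The genes named were set by rule: the 25 highest folds; up to 6 genes per list by fold; up to 12 genes with members at both ends or 3 or more members; the 10 widest; the 5 nearest on either side of the limits; and up to 8 highest folds with no J76 peak within 100 kb. Genes of the HOX clusters, of the longest distances, of the 1 Mb windows and of the printed sequences beyond this rule were chosen after their values were seen. The members and the lists were chosen with earlier results of these data known, and 4 lists matched by symbol were corrected after matching. Overlap and linking code was tested on simulated data. Alternatives were stricter q-values, lists of equal length, other overlap rules, other windows and uncrowded genes. Python 3.11.15 with numpy 2.4.6, pandas 2.3.3, scipy 1.17.1 and matplotlib 3.10.9 was used. Some genes are counted in their groups but not reported here by name.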

Additional observations from a re-analysis of the deposited data

How the results depend on the processing

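No paired analysis was possible because each line has 1 library, and no replicate could be left out for the same reason. The number of peaks, 2993, was 1962 at a −log10 q of at least 10 in both lists, 1823 with a window of 500 bp and 5204 with one of 2.5 kb, and the number of genes, 2919, was 1820 and 4836 under those windows, which the sizes of the windows set. It was between 2180 and 4263 peaks under the other 7 alternatives. The share nearest a start, 73.7%, was 78.7% and 83.7% at a −log10 q of at least 5 and 10 in both lists, 78.0% at 5 in 293T alone, 78.7% with equal list lengths, 78.4% with a reciprocal overlap of 50%, 79.7% with summits within 250 bp, 69.8% with no J76 peak within 1 kb, 80.9% and 65.8% with windows of 500 bp and 2.5 kb, and 76.4% for genes without a near neighbour. In the same order, the median fold, 4.24, was 5.06, 6.27, 5.01, 5.16, 4.58, 4.68, 4.84, 5.11, 3.75 and 4.46. Zinc finger genes numbered 60 to 113 against 81. HOX genes, 18, fell to 9 at a −log10 q of at least 10, to 11 with no J76 peak within 1 kb and to 7 without crowded genes. T cell genes, 3, were 0 at both q limits in both lists (5 and 10), 0 with that of 5 in 293T alone, 0 with equal list lengths and 0 with a window of 500 bp. The median CpG ratio, 0.700, was 0.721 and 0.747 at 5 and 10 in both lists, 0.717 with equal lengths and 0.666 with 2.5 kb. Apart from the construction of the windows and filters, the cause was not tested. The lists give no depth, so a weak site missing from J76 cannot be told from one under its detection limit.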
